A study of Mus musculus with 6 samples.

Results

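The genes described here are 38 genes of the unfolded protein response and of the response to amino acid shortage, read from 6 whole mouse embryos at embryonic day 9.5. They were chosen by name and not by their values: transcription factors and targets of ATF4, serine synthesis enzymes, chaperones of the endoplasmic reticulum (ER) and the ER stress sensors. Earlier results of these data were known when the genes were chosen. All 38 were measured, on 86 probe sets (sets of array probes for 1 transcript), among 18194 genes on 45101 probe sets in all. Each gene was read on its brightest probe set unless another is named. Values are log2 expression levels, so a difference of 1 is a doubling.

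The 3 RFC1-/- embryos lacked the reduced folate carrier (RFC1, gene Slc19a1) through targeted inactivation of the gene, and were affected, with craniorachischisis (an open neural tube along the brain and spine) and no fusion of chorion and allantois. The 3 RFC1+/+ embryos were normal littermates, 1 pair from each of 3 litters. Both genotypes came from heterozygous dams on the inbred SWV background, and all dams were injected with folic acid at 25 mg/kg each day from day 0.5. Every embryo of the null group was thus both RFC1-/- and malformed, so genotype and malformation cannot be told apart, and without folic acid no embryo was studied here. The paper also describes RFC1-/- embryos under this supplementation as developmentally delayed. Such a delay cannot be told apart from genotype here either. Each array held the RNA of 1 whole embryo, amplified in 2 labelling cycles.

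Proteins that misfold in the ER are sensed by PERK (Eif2ak3), IRE1 (Ern1) and ATF6. PERK phosphorylates the translation factor eIF2 alpha, which slows protein synthesis but raises translation of ATF4, while IRE1 splices the mRNA of XBP1 and ATF6 is cut free as a transcription factor. The kinase GCN2 (Eif2ak4) reaches the same eIF2 alpha site when uncharged tRNAs report a lack of amino acids, so ATF4 stands where both kinds of stress meet. ATF4 is known to induce asparagine and serine synthesis enzymes, tRNA synthetases and Ddit3, whereas ATF6 and XBP1 are known to induce chaperones and the machinery that removes misfolded proteins. Much of this control runs through translation, splicing and cleavage, which a 3' expression array does not read.

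The sequences through which these factors are known to act are shown first, because they show which genes carry the letters known for each arm. Windows from 250 bases before to 50 bases after the transcription start were taken from RefSeq for the GRCm38.p6 build and matched 34 of the 38 genes by symbol. Atf6, Hyou1, Manf and Ppp1r15b had no window. The ER stress response element (ERSE, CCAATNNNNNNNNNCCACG) was searched on both strands. It stood in the windows of 8 of 34 genes (23.5%), compared with 37 of 27025 genes with a window (0.137%). A gene counted if any of its windows held the motif. The 38 genes were chosen by name for their known part in these responses, so the motif shares are descriptions and were not tested. In the matches below, the capitals mark the CCAAT and CCACG ends, and the matches of Calr and Creld2 and the downstream site of Hsp90b1 are written as read on the strand opposite to the gene.
Hspa5: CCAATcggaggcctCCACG
Calr: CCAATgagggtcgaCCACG
Hsp90b1 upstream site: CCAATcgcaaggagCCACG
Hsp90b1 downstream site: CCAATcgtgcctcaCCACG
Canx: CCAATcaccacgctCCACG
Pdia6: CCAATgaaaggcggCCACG
Dnajc3: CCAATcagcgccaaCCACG
Creld2: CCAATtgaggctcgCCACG
Syvn1: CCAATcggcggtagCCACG
The 9 bases between the ends differed from gene to gene. The matches began between 44 bases (Syvn1) and 212 bases (Hsp90b1) before the start, and that of Hspa5 65 bases before it. The related ERSE-II (ATTGGNCCACG) stood in the windows of 2 genes (5.88%), compared with 0.0444% of genes, and is printed next with its fixed letters in capitals.
Herpud1: ATTGGgCCACG
Dnajb11: ATTGGcCCACG
It began 52 bases before the start of Herpud1 and 8 bases after the start of Dnajb11. The ERSE-II letters do not overlap an ERSE in these genes.

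The ATF4 response element was searched on both strands as TGATGNAAT, which stood in the windows of Nupr1 and Aars (5.88%, compared with 1.08% of genes). Its first 8 letters, TGATGNAA, stood in the windows of 7 genes (20.6%, compared with 4.51% of genes): Atf3, Chac1, Trib3, Asns, Nupr1, Herpud1 and Aars. The shorter motif overlaps the longer one by construction and was added after the promoters had been seen. The core of the unfolded protein response element (TGACGTG, which shares letters with cyclic AMP response elements) stood in the window of 1 gene, Hspa5, compared with 2.22% of genes.

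The 250 bases before the start are shown, 5′ to 3′ in the direction of the gene, for 3 genes that the results below turn on. Hspa5 carries an ERSE and the TGACGTG core, both in capitals, on the forward strand of chromosome 2 (chr2:34771840-34772089, GRCm38.p6).
Hspa5: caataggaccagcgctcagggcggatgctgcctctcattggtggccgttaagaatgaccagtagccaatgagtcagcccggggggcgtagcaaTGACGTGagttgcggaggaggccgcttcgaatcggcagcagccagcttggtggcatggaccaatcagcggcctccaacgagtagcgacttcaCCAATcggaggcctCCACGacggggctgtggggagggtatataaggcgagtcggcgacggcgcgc
Asns carries the TGATGNAA letters 23 bases before its start, on the reverse strand of chromosome 6 (chr6:7693210-7693459), and the same stretch is known from the human gene as a nutrient-sensing element.
Asns: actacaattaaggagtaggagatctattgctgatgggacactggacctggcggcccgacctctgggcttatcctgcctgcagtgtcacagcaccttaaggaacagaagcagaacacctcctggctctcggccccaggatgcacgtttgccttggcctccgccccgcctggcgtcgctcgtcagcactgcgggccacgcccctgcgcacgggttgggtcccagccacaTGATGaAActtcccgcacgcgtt
Herpud1 carries both an ERSE-II and, on the opposite strand, TGATGNAA (capitals), on the forward strand of chromosome 8 (chr8:94386179-94386428).
Herpud1: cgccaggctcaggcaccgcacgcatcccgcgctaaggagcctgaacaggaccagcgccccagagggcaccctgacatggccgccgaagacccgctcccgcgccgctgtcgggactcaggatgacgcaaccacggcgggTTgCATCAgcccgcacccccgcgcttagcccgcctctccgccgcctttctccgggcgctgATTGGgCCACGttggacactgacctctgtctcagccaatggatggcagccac
A match is a run of letters in a window and was not tested for binding.

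Of the 38 genes, 1 fell in RFC1-/- embryos, none rose and 37 did not pass the test (limma with litter as a block, Benjamini-Hochberg adjusted over all 18194 genes, threshold 0.05). Over all genes 3.67% were called higher and 1.65% lower. At an unadjusted p under 0.05 in limma, 5 of the 38 were higher and 1 lower, beside 1890 higher and 1464 lower of all 18194 genes. The random-variance paired test called 0 of the 38. The median difference of the 38 was 0.08 (0.02, 0.07 and 0.10 in litters 1 to 3), beside -0.01 over all genes, and the median size of a difference was 0.14, beside 0.11. The 38 means ran between -0.46 (Asns) and 0.49 (Psph), 24 above 0 and 14 below, beside 8377 above and 9817 below over all genes. For 30 of the 38, beside 14899 of all 18194 genes, the 95% interval on the brightest probe set lay within 1.5-fold in both directions. Larger changes were outside the interval on that probe set for those 30, and for 8 it reached further. The 30 include Sel1l, whose next probe set had an interval of 0.16 to 0.69, and the dim genes Cebpb and Nupr1.

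**Figure D1:**
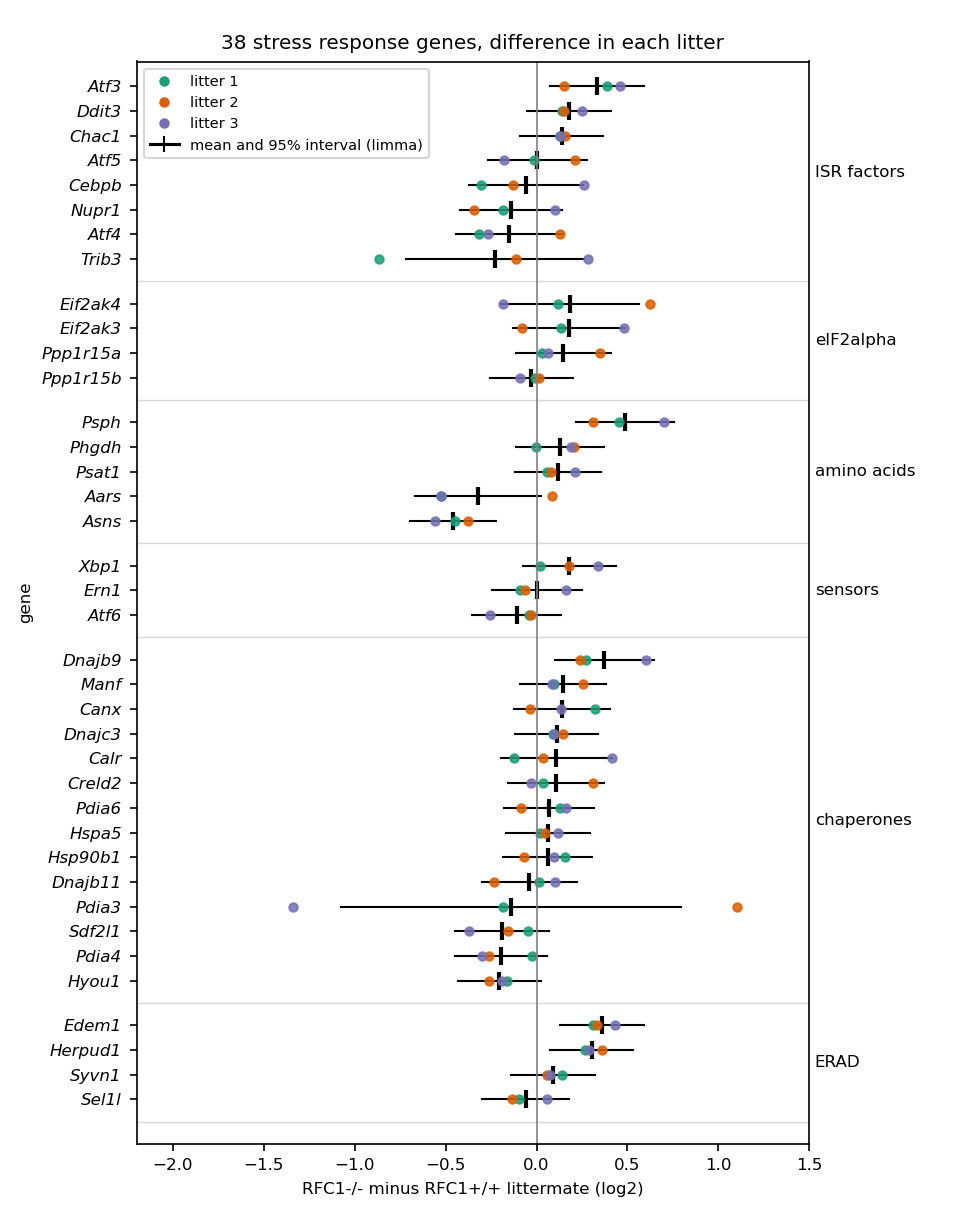
Difference in log2 expression, RFC1-/- minus RFC1+/+ littermate, for 38 genes grouped by role (ISR, integrated stress response; ERAD, ER-associated degradation). Dots are single litters, black ticks the means over 3 litters and black lines their 95% intervals from limma; Asns lies below 0 in all 3 litters, Psph above 0 in all 3, and Pdia3 has the widest interval.

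The 5 genes of amino acid synthesis and charging did not share a direction. Asns, which encodes asparagine synthetase and is a textbook target of ATF4, had levels of 10.23, 10.39 and 10.30 in RFC1-/- embryos of litters 1 to 3, against 10.68, 10.77 and 10.85 in their RFC1+/+ littermates. The lowest wild type value was above the highest null value. Asns averaged 10.31 ± 0.08 in RFC1-/- and 10.77 ± 0.09 in RFC1+/+ embryos (SD, n = 3 each), a difference of -0.46 ± 0.10 (SE, 95% interval -0.70 to -0.22, limma adjusted p = 0.0489), or 0.726 times the littermate level. A second Asns probe set gave -0.48. Read over all 45101 probe sets, of which 2.75% were called, the 2 Asns probe sets had limma adjusted p = 0.064 and 0.083, and none of the 86 probe sets of the 38 genes was called (7 were higher and 3 lower at an unadjusted p under 0.05). The call of Asns over genes was lost when any 1 litter was left out (adjusted p up to 0.258, without litter 1), and its difference stayed between -0.50 and -0.41 under the alternatives run.

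Psph, phosphoserine phosphatase and the last step of serine synthesis, went the other way without passing the test. Its levels were 9.94, 9.76 and 10.33 in RFC1-/- embryos, against 9.49, 9.45 and 9.63 in RFC1+/+ littermates. The groups did not overlap, and the difference was 0.49 ± 0.11 (SE, 95% interval 0.22 to 0.76, limma adjusted p = 0.062). With an intensity trend in the variance prior it passed (adjusted p = 0.0455), and without litter 1 its adjusted p was 0.249. The enzymes of the first and second steps of the same pathway, Phgdh and Psat1, differed by 0.13 (95% interval -0.11 to 0.37) and 0.12 (-0.12 to 0.35), so all 3 serine enzymes had means above 0 and intervals that for Phgdh and Psat1 included 0.

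Aars, the alanyl-tRNA synthetase that charges tRNA with alanine, had levels of 10.20, 10.56 and 10.14 in RFC1-/- embryos, against 10.72, 10.47 and 10.66 in RFC1+/+ littermates. It was lower in litters 1 and 3, by 0.52 in each, and higher by 0.09 in litter 2, so the mean of -0.32 ± 0.15 (SE) did not pass (limma adjusted p = 0.313). Its second probe set gave -0.38 with the same litter standing apart (0.00 in litter 2). Atf4 itself differed by -0.31, 0.13 and -0.27 in litters 1 to 3 on its brightest probe set, with a mean of -0.15 (95% interval -0.44 to 0.14), and by -0.23, -0.05 and 0.01 on the next, so its probe sets did not share a pattern across litters.

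**Figure D2:**
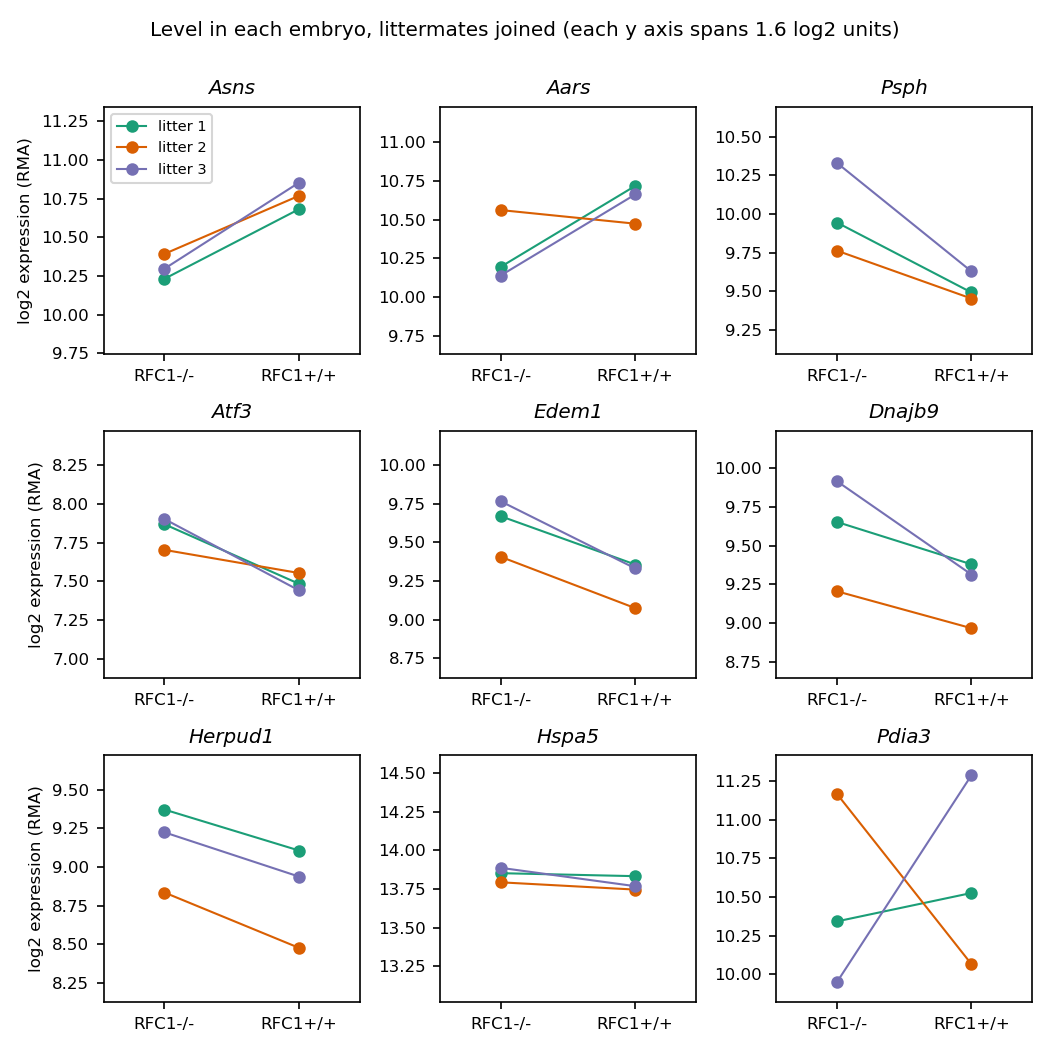
Log2 expression of 9 genes in each of 6 embryos, RFC1-/- on the left and RFC1+/+ on the right of each panel, with littermates joined by a line; every y axis spans the same range of log2 units. Asns lines climb to the wild type in all 3 litters, those of Psph, Atf3, Edem1, Dnajb9 and Herpud1 descend in all 3, Hspa5 is nearly level, and the Pdia3 lines cross.

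None of the 8 factors and regulators of the integrated stress response passed the limma test, and they pointed both ways, 4 above 0 and 4 below (median -0.03; 1 higher and 0 lower at an unadjusted p under 0.05). Atf3, a stress-induced transcription factor, was the one with separate groups. Its levels were 7.87, 7.70 and 7.90 in RFC1-/- embryos, against 7.48, 7.55 and 7.44 in RFC1+/+ littermates. The difference was 0.33 ± 0.11 (SE, limma adjusted p = 0.153). Ddit3, which encodes the pro-apoptotic factor CHOP, differed by 0.18 (95% interval -0.05 to 0.41) and Chac1, which degrades glutathione and is a sensitive ATF4 target, by 0.14 (-0.09 to 0.37). Both had means above 0 in all 3 litters. Trib3, a pseudokinase that restrains ATF4, had levels of 6.91, 6.59 and 6.71 in RFC1-/- embryos, against 7.77, 6.70 and 6.42 in RFC1+/+ littermates. The wild type embryo of litter 1 stood above the other 5, and a second Trib3 probe set had 6.27 in that embryo and a mean difference of 0.03. The mean on the brightest probe set was -0.23 (limma adjusted p = 0.666), with -0.86 in litter 1, -0.11 in litter 2 and 0.29 in litter 3. The mean of Atf5, a relative of ATF4, was 0.01. Cebpb and Nupr1, a partner of ATF4 on DNA and a small stress-induced nuclear protein, had means of -0.06 and -0.14, but their group means lay under the median of all array values (5.46), where dim probe sets say little.

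The kinases and phosphatase subunits that set eIF2 alpha phosphorylation were not called, 0 of 4, also at an unadjusted p under 0.05 in limma. Eif2ak4 had its largest litter difference in litter 2 (0.63) and one of the opposite sign in litter 3 (-0.19), with a mean of 0.19 (95% interval -0.19 to 0.57). Eif2ak3 differed by 0.18 (-0.13 to 0.49). Ppp1r15a (GADD34), the stress-induced subunit that returns eIF2 alpha to its resting state, differed by 0.15 (-0.11 to 0.41), and its constitutive counterpart Ppp1r15b by -0.03 (-0.26 to 0.20). The phosphorylation itself was not measured.

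Among the sensors and their factors, Ern1 differed by 0.00 (95% interval -0.25 to 0.25), and no member passed the limma test, also at an unadjusted p under 0.05. Xbp1 differed by 0.18 (-0.08 to 0.44), above 0 in all 3 litters, and its 3 brightest probe sets gave 0.18, 0.14 and 0.20. Spliced and unspliced Xbp1 mRNA were not told apart on these probe sets. Atf6 gave opposite results on its 2 brightest probe sets. The brightest gave -0.11 with the null group below, and the next gave 0.25 with the null group above (6.72, 6.55 and 6.53 in RFC1-/-, against 6.41, 6.24 and 6.42 in RFC1+/+ embryos). Neither passed, so a direction for Atf6 was not settled.

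The 14 ER chaperones and folding enzymes had a median difference of 0.07 and none passed the limma test (1 higher and 0 lower at an unadjusted p under 0.05). Hspa5 encodes BiP, the chief chaperone of the ER and the gene most used as a readout of unfolded proteins. Its levels were 13.85, 13.79 and 13.89 in RFC1-/- embryos, against 13.83, 13.75 and 13.77 in RFC1+/+ littermates. The difference of 0.06 had a 95% interval of -0.17 to 0.29, and the null group overlapped the wild type. Its 2 other probe sets gave 0.03 and -0.14. Hsp90b1 (GRP94) differed by 0.06 (-0.18 to 0.30), the lectin chaperones Calr and Canx by 0.11 and 0.14, the disulfide isomerase Pdia6 by 0.07, and Dnajc3, Dnajb11, Creld2 and Manf, which are helpers or secreted products of the stressed ER, by 0.11, -0.04, 0.11 and 0.15. Each of these intervals included 0.

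The 8 genes with an ERSE in the window, Hspa5, Hsp90b1, Calr, Canx, Pdia6, Dnajc3, Creld2 and Syvn1, had differences of 0.06 to 0.14, all 8 above 0, with a median of 0.10. None passed the test. The 26 genes with a window but no ERSE ranged from -0.46 to 0.49 around a median of 0.06, with 15 above 0. With the probe sets of each gene averaged, 5 of the 8 were above 0, and likewise 5 on the most variable probe set. These are descriptions of the sets, which were not tested against each other.

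Hyou1, Pdia4 and Sdf2l1, all residents of the ER lumen, were lower in each of the 3 litters without passing. Hyou1, a large relative of the HSP70 chaperones, had levels of 10.46, 10.60 and 10.65 in RFC1-/- embryos, against 10.62, 10.86 and 10.84 in RFC1+/+ littermates (difference -0.20, limma adjusted p = 0.336). Pdia4, a disulfide isomerase, had levels of 8.70, 8.93 and 8.97 in RFC1-/- embryos, against 8.72, 9.19 and 9.27 in RFC1+/+ littermates (-0.20, limma adjusted p = 0.409). Sdf2l1 differed by -0.19. The groups overlapped for each. Dnajb9 (ERdj4), a cofactor of BiP and a known target of XBP1, had levels of 9.65, 9.20 and 9.92 in RFC1-/- embryos, against 9.38, 8.97 and 9.31 in RFC1+/+ littermates. It was higher than its littermate in every litter, yet the groups overlapped because litter 2 was low in both genotypes. The difference was 0.37 ± 0.11 (SE, 95% interval 0.10 to 0.64, limma adjusted p = 0.132).

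Pdia3, the isomerase that works with calnexin and calreticulin, was the most variable of the 38 on its brightest probe set. Its levels were 10.34, 11.17 and 9.95 in RFC1-/- embryos, against 10.53, 10.07 and 11.29 in RFC1+/+ littermates. The litters disagreed in sign (-0.18, 1.10 and -1.34), and the mean was -0.14 ± 0.39 (SE). A dimmer Pdia3 probe set did not follow, with differences of 0.15, -0.14 and 0.43. Its 95% interval ran from -1.08 to 0.79, the widest of the 38.

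Of the 4 members that remove misfolded proteins from the ER, 3 were higher in every litter and none passed the limma test (2 higher and 0 lower at an unadjusted p under 0.05). Edem1, a lectin that extracts misfolded glycoproteins, had levels of 9.67, 9.41 and 9.77 in RFC1-/- embryos, against 9.36, 9.08 and 9.33 in RFC1+/+ littermates. The groups did not overlap, and the difference was 0.36 ± 0.10 (SE, limma adjusted p = 0.0951). Its second probe set differed by 0.00 (95% interval -0.25 to 0.25), so the 2 probe sets of the gene differed. Herpud1, which organises the retrotranslocation complex, had levels of 9.37, 8.84 and 9.22 in RFC1-/- embryos, against 9.11, 8.48 and 8.94 in RFC1+/+ littermates. The difference was 0.30 ± 0.10 (SE, limma adjusted p = 0.144) with overlapping groups, and its second probe set gave 0.04. The ubiquitin ligase Syvn1 (HRD1) differed by 0.09 (-0.14 to 0.32). Its partner Sel1l differed by -0.06 on the brightest probe set and by 0.42 on the next, where the groups did not overlap (the lowest RFC1-/- value was 6.71 and the highest RFC1+/+ value 6.48, limma adjusted p over probe sets = 0.12).

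In all, 3 of the 38 genes had every null value above every wild type value (Atf3, Psph and Edem1) and 2 had every null value below (Asns and Atf6), whereas 12.8% of all genes lay above and 13.4% below. The 3 genes above make 7.89% of the 38. By litter, 14 were higher in all 3 litters and 5 lower, 36.8% being higher, against 18.4% of all genes higher and 20.6% lower. The 14 were Psph, Dnajb9, Edem1, Atf3, Herpud1, Xbp1, Ddit3, Ppp1r15a, Manf, Chac1, Psat1, Dnajc3, Syvn1 and Hspa5, and the 5 were Asns, Hyou1, Pdia4, Sdf2l1 and Atf6.

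Litter 2 was the lowest litter in both genotypes for 13 of the 38, compared with 8.6% of all genes. The strongest was Herpud1, whose litter 2 mean lay 0.58 below litter 1 and 0.43 below litter 3, followed by Dnajb9 (0.43 and 0.53) and Xbp1 (0.41 and 0.46). Herpud1, Dnajb9, Xbp1, Ern1, Edem1, Syvn1, Dnajc3, Manf and Hspa5 are ER stress genes, and Chac1, Ddit3 and Psph lie on the ATF4 arm. Ppp1r15b, an eIF2 alpha phosphatase subunit, completes the 13. The second Herpud1 probe set, which showed nearly no genotype difference, had the same litter spread (0.56). A moderated F test of litter, added after these values had been seen, called 0% of all genes and none of the 38 (limma adjusted p = 1.00 for each of the 13). At an unadjusted p under 0.05 it held 6 of the 38 (15.8%) and 525 of all genes (2.89%). The dip was not particular to the 38. Of 25 measured visceral endoderm markers, described below, litter 2 was lowest in both genotypes for 10. The F test held 8 of those 25 (32%) at an unadjusted p under 0.05. Litter 2 was lowest in both genotypes for 3 of 40 ER translocation and folding genes and 0 of 21 other ER-associated degradation genes. A link between these patterns was not tested. Each litter is 1 pair, so a litter, a day of collection and a handling of the pair cannot be told apart.

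**Figure D3:**
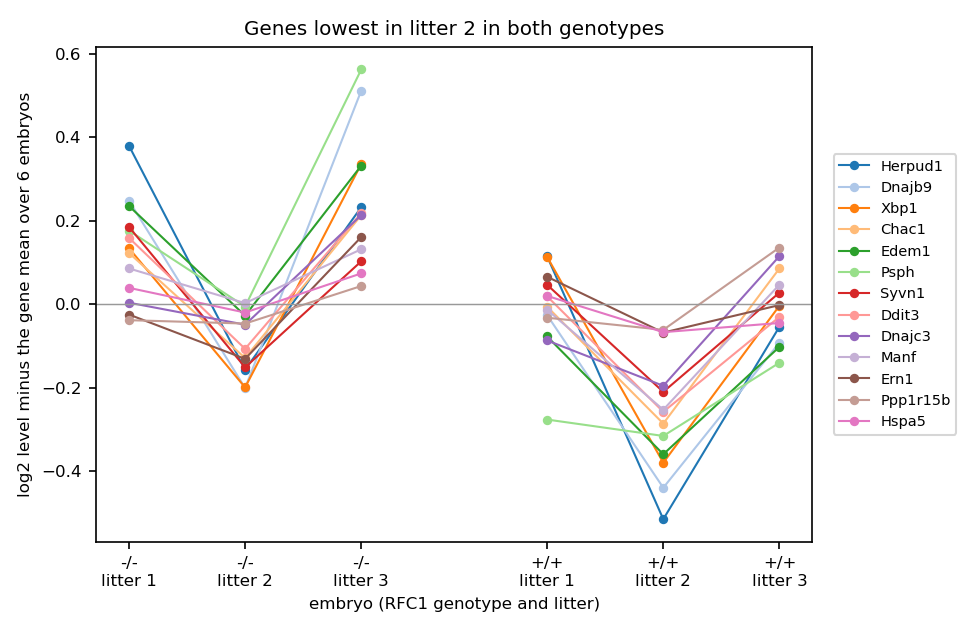
Log2 level of 13 genes in each embryo, minus that gene's mean over the 6 embryos, for RFC1-/- embryos of litters 1 to 3 on the left and their RFC1+/+ littermates on the right. The genes shown were picked because litter 2 is the lowest in both genotypes, so the dip at litter 2 is what chose them, and Herpud1, Dnajb9 and Xbp1 dip furthest.

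Other genes of the same pathways were read from lists of names. Of 40 measured genes of ER translocation and folding, 2 rose and 0 fell, 35 were above 0, 21 were higher in all 3 litters (52.5%) and the median was 0.13. Over all 18194 genes 3.67% were called higher, 8377 were above 0 and 18.4% were higher in all 3 litters. Their summed signal was 16.59 to 16.69 (log2) in RFC1-/- embryos and 16.49 to 16.51 in RFC1+/+ embryos, without overlap. The 2 that rose were Ero1a, the oxidase that recharges disulfide isomerases, and Pdia5, another isomerase. Ero1a had levels of 11.64, 11.06 and 11.68 in RFC1-/- embryos, against 10.41, 10.34 and 10.60 in RFC1+/+ littermates, 2.02 times the littermate level (95% interval of the log2 difference 0.71 to 1.31, limma adjusted p = 0.0105). Pdia5 had levels of 9.67, 9.71 and 10.02 in RFC1-/- embryos, against 9.13, 9.27 and 9.56 in RFC1+/+ littermates, a difference of 0.48 ± 0.10 (SE, limma adjusted p = 0.0395). Every null value of both genes lay above every wild type value.

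Of 27 measured further ATF4 targets, 3 rose and 0 fell, around a median of 0.01 (14 above 0). Their summed signal was 14.11 to 14.23 (log2) in RFC1-/- embryos and 14.07 to 14.08 in RFC1+/+ embryos, also without overlap. At an unadjusted p under 0.05, 9 were higher and 4 lower, and 8 had every null value above every wild type value and 4 every null value below. Among all 18194 genes, 3.67% were called higher and 1.65% lower, and 1890 were higher and 1464 lower at an unadjusted p under 0.05. Every null value lay above for 12.8% of all genes and below for 13.4%. The 3 that rose were Vldlr, a lipoprotein receptor, Vegfa, the chief growth factor of vessels, and Jdp2, a relative of ATF3. Vldlr had levels of 8.01, 7.57 and 8.08 in RFC1-/- embryos, against 7.07, 6.43 and 6.94 in RFC1+/+ littermates (difference 1.07). Vegfa had levels of 8.27, 7.89 and 8.26 in RFC1-/- embryos, against 6.92, 7.17 and 7.20 in RFC1+/+ littermates (difference 1.04). Jdp2 had levels of 7.12, 7.34 and 7.57 in RFC1-/- embryos, against 6.73, 6.87 and 7.01 in RFC1+/+ littermates (difference 0.48). In each of the 3 the null group lay above the wild type group.

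None of 18 cytosolic tRNA synthetases other than Aars passed the limma test (0 higher and 2 lower at an unadjusted p under 0.05), with a median of -0.06. Their median was 0.03 in litter 1, 0.07 in litter 2 and -0.26 in litter 3, so the low Aars value of the null embryo in litter 1 had no counterpart in the list's median. None of 21 other genes of ER-associated degradation passed (median 0.01; 3 higher and 0 lower at an unadjusted p under 0.05), nor did any of 23 upstream regulators (median 0.02; 3 higher and 1 lower). The companions of Edem1 and Herpud1 in degradation were thus centred near 0.

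The embryos differed in more than these genes. All 25 measured of 28 listed markers of visceral endoderm, a secretory layer outside the embryo proper, were higher in RFC1-/- embryos (median 3.21), with a summed log2 signal of 14.78 to 16.19 in RFC1-/- and 11.97 to 12.99 in RFC1+/+ embryos. The list holds genes that the paper reported as raised on these same arrays, among them Cubn, Apoa1, Apom, Ttr, Rbp4 and Trf. Its count is therefore not independent of the paper's result. The list's medians in litters 1 to 3 were 2.64, 2.38 and 4.62. According to the methods, decidua, chorion and amnion were dissected away and the membranes around the embryo went to genotyping. How much extraembryonic tissue stayed on each embryo is not given. In immunostained sections, the paper also describes more cubilin protein (gene Cubn) inside RFC1-/- embryos, in the heart and the cranial mesenchyme. Neural progenitor markers fell for 12 of 15 (median -1.12, summed signal 11.75 to 12.59 in RFC1-/- and 13.14 to 13.26 in RFC1+/+ embryos) and primitive erythroid markers for 8 of 15 (median -1.02, summed signal 10.44 to 12.28 in RFC1-/- and 14.83 to 15.36 in RFC1+/+ embryos). Markers of heart muscle rose for 9 of 11 (median 0.73, summed signal 15.17 to 15.30 in RFC1-/- and 14.46 to 14.72 in RFC1+/+ embryos). Parietal endoderm markers rose for 3 of 11 (median 0.34, 3 means below 0) and trophoblast markers for 1 of 7 (median 0.27, 1 below 0). Somite markers fell for 4 of 10 (median -0.56, 1 mean above 0). Over all genes, 3.67% were called higher and 1.65% lower. In whole embryos, fewer cells of a type and less RNA per cell cannot be told apart, and the part of these shifts in the values of the 38 genes was not tested. RMA values have no true zero, and 1 visceral endoderm marker had both group means under the median of all array values and 5 had one of them there. Both group means were also under it for 3 of 7 trophoblast, 4 of 10 somite and 3 of 15 erythroid markers.

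**Figure D4:**
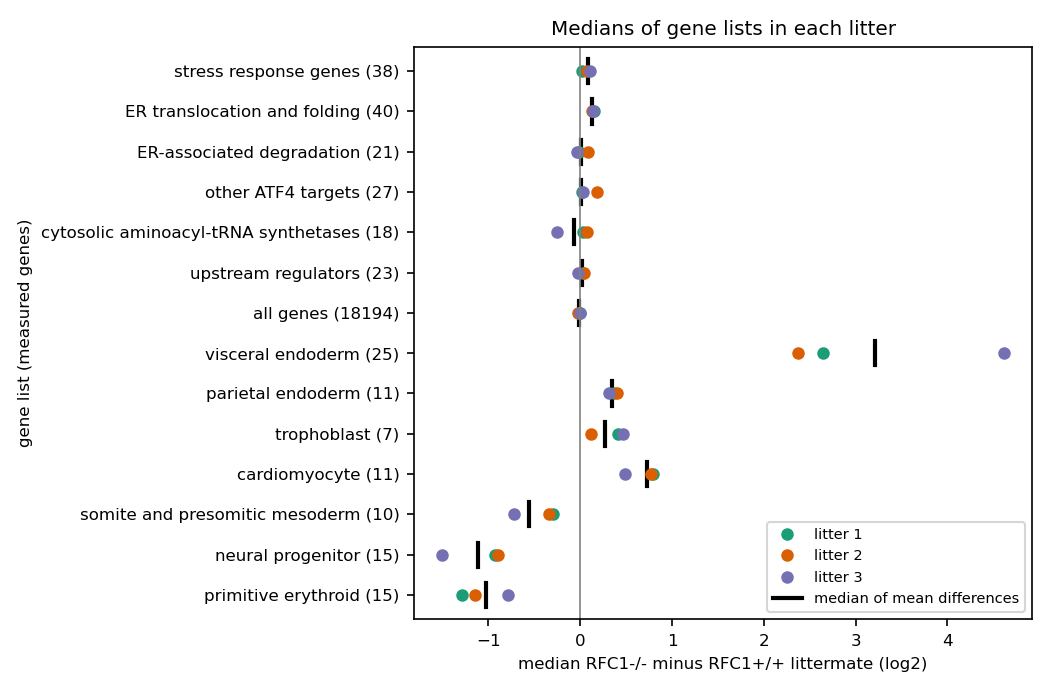
Median difference in log2 expression, RFC1-/- minus RFC1+/+ littermate, over the measured genes of each list (number in brackets), with dots for single litters and black ticks for the median of the mean differences. The stress response genes, most of their pathway lists and all genes have black ticks near 0. ER translocation and folding lies above 0 in each litter (0.14, 0.13 and 0.14), and the tRNA synthetases reach -0.26 in litter 3. Visceral endoderm, heart, neural progenitor and erythroid markers lie further from 0.

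The targeted gene read higher, not lower, in the embryos labelled RFC1-/-. Slc19a1 had levels of 9.97, 10.10 and 9.84 in RFC1-/- embryos, against 9.11, 9.10 and 8.89 in RFC1+/+ littermates on its brightest probe set, a difference of 0.93 (limma adjusted p over probe sets = 0.00809). The next probe set gave 1.19 (limma adjusted p over probe sets = 0.00701), also higher in all 3 litters, and the third gave 0.02 with both group means (4.97 and 4.94) under the median of all array values. Which part of the gene the inactivated allele lacks relative to these probes is not given in the labels or the methods, so genotypes were taken from the labels, and these values do not check them.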

How the data were processed

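Affymetrix whole-genome mouse expression arrays, 1 for each of 6 embryos, were used. The authors deposited log2 expression values for all 45101 probe sets, made by RMA (background correction, quantile normalization, median polish) in an unstated version. Quantile normalization forces arrays onto 1 distribution, and arrays carry no read depth, so their number limits the precision. Array medians were 5.43 to 5.49, and pairs of arrays correlated at 0.984 to 0.996.

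Genotypes were compared by limma 3.58.1 (R 4.3.3) with litter as a block, since labels and methods pair 1 embryo of each genotype per litter, and p-values were adjusted by Benjamini-Hochberg over 18194 genes, each on its brightest probe set with a single symbol (34958 probe sets had 1 symbol, 932 several and 9211 none). Intervals come from that fit. Summed signals are log2 of the summed unlogged values. Of the 38 genes, all 6 values are given for those past the threshold and those with the 5 largest and 5 smallest differences; Hspa5, Pdia3 and the second probe sets of Atf6 and Sel1l were added after their values were seen. Up to 3 genes past the threshold were named from each pathway list. Members and lists were chosen with earlier results of these data known. Fits were tested on simulated data. Motifs were searched in Python 3.11.15.

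Alternatives were no block, an intensity trend, the random-variance paired test and the 1.5-fold variation filter of the methods, dim genes left out, 2 other scalings, 2 other choices of probe set, and each litter left out.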

Additional observations from a re-analysis of the deposited data

How the results depend on the processing

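The number of all genes called was 968 and lay within 1.5 times of that under every alternative run except the variation filter of the methods (537) and leaving out litters, where it ranged between 355 and 1199; over probe sets it was 1241, and 129 to 1585 with a litter left out. Of the 38 genes, 0 were called higher, and 1 (Psph) with an intensity trend in the variance prior. The 1 called lower (Asns) was 0 with the random-variance paired test, the variation filter, arrays centred on the median, the probe set with the largest variance and each litter left out. The variation filter kept only 3 of the 38 genes, with a median of -0.14; otherwise the median of the 38 stayed between 0.05 and 0.10. Without the replicate block, 1156 genes were called, with 0 of the 38 higher and 1 lower (Asns, limma adjusted p = 0.0239). Of 419 values of single members under the alternatives, 393 kept their sign and 26 in 15 genes did not, none of them called and none with a main difference over 0.23 in size. By design, the variation filter tests fewer genes and leaving out a litter leaves 2 pairs. The causes of these changes were not tested.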
